A study of Mus musculus with 24 samples.

Results

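The transcripts followed here are those of 6 ligands of the epidermal growth factor receptor (Areg, Ereg, Hbegf, Tgfa, Btc and Egf) and of 3 receptors of the ERBB family (Egfr, Erbb2 and Erbb3), in mouse gut tissue. They were chosen by name, by matching mouse gene symbols to the Ensembl identifiers of the count files, and all 9 were found among the 39179 genes listed. RNA was sequenced from 24 libraries in 8 groups of 3, and the series asks what loss of the intestinal homeobox gene Cdx2 does to the gut with and without a mutant Apc allele.

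WT cecum and WT stomach came from untreated wild-type mice, and Cdx2+/- cecum came from untreated heterozygous mice. Cdx2-/- cecum came from Cdx2f/f::AhCreERT mice, in which both Cdx2 alleles are floxed and a tamoxifen-dependent Cre is driven by the Cyp1a1 (Ah) promoter. These mice received tamoxifen and β-naphthoflavone, an agent that switches on that promoter. The Cdx2-/- cecum libraries fall by their library code into set 1 (replicates 1 to 3) and set 2 (replicates 4 to 6). Cdx2-/-;Apc+/- cecum and ileum came from mice that carry ApcD14/+ as well and received the same agents. Apc+/- ileum came from untreated mice. The genotype entry of its replicate 2 is ApcD14/+, whereas replicates 1 and 3 are entered as carrying floxed Cdx2 with Cre although their descriptions call the allele not floxed; the titles were followed. Ages are not stated. In every comparison of a Cdx2-/- group with WT cecum, Cdx2+/- cecum or Apc+/- ileum, treatment goes with genotype, and the effects of the agents and of the deletion cannot be told apart. The tissues were dissected whole, so fewer cells of a type and less RNA per cell cannot be told apart. The labels do not say that replicates are separate animals, and p-values then measure only the spread between these samples.

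As background, the ligands are made as membrane-bound precursors that metalloproteases of the ADAM family cut at the cell surface. The released growth factors bind EGFR, and some of them also bind ERBB4. EGFR signals as a dimer with itself or with ERBB2 or ERBB3. ERBB2 has no known soluble ligand and acts as a partner, and ERBB3 binds neuregulins and has a weak kinase of its own. In the gut the receptors sit on epithelial cells and are known for driving crypt proliferation and repair, chiefly through the RAS-ERK cascade, which also induces inhibitors of its own signal.

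Gene reads per library ran from 36567685 to 87975179. Levels are given as CPM, read counts divided by the library's total as scaled by TMM, and differences as log2 fold changes ± SE from edgeR's quasi-likelihood test, called where the p adjusted over 20502 genes (Benjamini-Hochberg) was under 0.05. Cdx2 had 408 to 663 CPM in WT cecum, 130 to 349 CPM in Cdx2-/- cecum and 115 to 118 CPM in Cdx2+/- cecum. The libraries labelled Cdx2-/- thus held more Cdx2 transcript than those labelled Cdx2+/-, and a count over the whole gene does not separate reads of a deleted part. The library labelled Cdx2-/-;Apc+/- ileum replicate 2 held 178 CPM of Cdx2, above the 63.3 to 112 CPM of Apc+/- ileum, and 2016 CPM of the ileal gene Fabp6, against 17.9 and 1.34 CPM in replicates 1 and 3. Set 1 held 666 to 816 CPM of Xist and every other library at most 2.19 CPM, so set 1 differs from all other libraries in this transcript of females. The summed level of 4 cecum and colon markers was 18293 to 34579 CPM in WT cecum and 3522 to 4747 CPM in Cdx2+/- cecum. It was 19.4 to 2143 CPM in Cdx2-/- cecum, so the defining markers of the labelled tissue were low in the mutants. The mutant cecum groups also held stomach markers, with sums of 14666 to 16337 CPM in Cdx2+/- cecum and 565 to 12547 CPM in the Cdx2-/- cecum groups with and without ApcD14/+, against 3.42 to 774 CPM in WT cecum and 165300 to 227827 CPM in WT stomach. Replicates 2 and 3 of set 1 were alike and apart from replicate 1 in the cecum and colon sum (19.4 and 19.7 against 2143 CPM) and the stomach sum (12547 and 12110 against 3016 CPM). The labels do not say whether these 2 libraries come from 1 animal. The main fits count them as separate, and 1 alternative fit merged them.

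Ereg, Areg and Btc lie in 1 cluster on mouse chromosome 5 (GRCm38), together with the related ligand gene Epgn. Ereg (ENSMUSG00000029377) spans chr5:91074622-91093646 and Areg (ENSMUSG00000029378) chr5:91139599-91148432, both on the plus strand, and Btc (ENSMUSG00000082361) spans chr5:91357261-91402994 on the minus strand. Egfr (ENSMUSG00000020122) lies at chr11:16752203-16918158 and Erbb2 (ENSMUSG00000062312) at chr11:98412470-98437716, both on the plus strand. Erbb3 (ENSMUSG00000018166) lies at chr10:128567523-128589652, minus strand, Tgfa (ENSMUSG00000029999) at chr6:86195223-86275719, plus strand, and Egf (ENSMUSG00000028017) at chr3:129677565-129755316, minus strand. Ereg, Egf and Egfr have antisense genes over them, and Mien1 overlaps Erbb2 on the other strand. The strand setting of the counting is not given in the sources used here, so reads of such pairs may not have been told apart.

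RefSeq promoter sequences of GRCm38.p6 were at hand for Areg, Tgfa, Btc, Egf, Egfr and Erbb2. The 250 bases before the start are shown for Areg and Btc, cluster neighbours whose transcripts had an r of 0.17 over all 24 libraries and of 0.70 over the 21 outside WT cecum, and for Egfr, the receptor they bind. Capitals mark TTTAT or its reverse complement ATAAA, the core letters of sites bound by CDX proteins, and the cyclic AMP response element TGACGTCA, both searched on either strand.
Areg, chr5:91139349-91139598, plus strand: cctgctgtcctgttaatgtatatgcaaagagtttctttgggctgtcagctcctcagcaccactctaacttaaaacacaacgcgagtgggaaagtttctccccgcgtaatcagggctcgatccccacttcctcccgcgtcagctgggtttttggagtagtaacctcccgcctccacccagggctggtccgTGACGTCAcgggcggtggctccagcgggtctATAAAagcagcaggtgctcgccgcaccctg
Btc, chr5:91402995-91403244, minus strand: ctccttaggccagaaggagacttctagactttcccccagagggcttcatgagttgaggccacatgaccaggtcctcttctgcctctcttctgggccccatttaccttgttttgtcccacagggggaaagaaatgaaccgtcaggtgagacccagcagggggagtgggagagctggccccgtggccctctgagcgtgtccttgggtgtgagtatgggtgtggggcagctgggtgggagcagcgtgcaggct
Egfr, chr11:16751953-16752202, plus strand: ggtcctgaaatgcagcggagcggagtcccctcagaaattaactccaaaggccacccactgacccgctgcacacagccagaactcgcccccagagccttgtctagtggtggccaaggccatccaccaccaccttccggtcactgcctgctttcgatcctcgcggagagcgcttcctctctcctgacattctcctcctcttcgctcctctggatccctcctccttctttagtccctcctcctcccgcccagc
The Areg window held 1 TGACGTCA, which 1.55% of 32851 promoter windows of that length hold, and 1 ATAAA, a run that with its reverse complement occurs in 37.3% of them. This ATAAA is part of TATAAAAG close to the start, which has the form of a TATA box, and binding by CDX proteins was not tested. Neither run was in the windows of Btc, Egfr, Tgfa, Erbb2 or the 2 starts of Egf. The Areg window had 15 CpG pairs and a GC content of 57.2%, the Btc window 4 CpG pairs at 59.6%, and the Egfr window 11 CpG pairs at 60.8%, against medians of 6 CpG pairs and 52.4% over all promoters.

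The ligand betacellulin, encoded by Btc, showed the largest fold of the 9 between WT cecum and each mutant cecum group. Btc stood at 3.55, 3.66 and 4.44 CPM in WT cecum and at 60.6, 60.1 and 61.4 CPM in Cdx2+/- cecum. In Cdx2-/- cecum it was 34.2, 58.0 and 61.3 CPM in set 1 and 40.6, 24.9 and 26.2 CPM in set 2. It was 31.4, 50.2 and 29.8 CPM in Cdx2-/-;Apc+/- cecum. Every mutant cecum library lay above every WT cecum library. WT stomach held 46.4, 25.6 and 37.2 CPM, Apc+/- ileum 33.5, 34.7 and 39.7 CPM, and Cdx2-/-;Apc+/- ileum 48.6, 23.4 and 50.8 CPM, so that the 21 libraries outside WT cecum ran from 23.4 to 61.4 CPM. Btc was 10.2-fold higher in Cdx2-/- than in WT cecum (log2 3.34 ± 0.30, edgeR adjusted p = 4.57e-08), 15.6-fold higher in Cdx2+/- cecum (3.96 ± 0.33, 8.04e-08) and 9.53-fold higher in Cdx2-/-;Apc+/- cecum (3.25 ± 0.32, 2.2e-07). These comparisons share their WT cecum libraries.

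**Figure D1:**
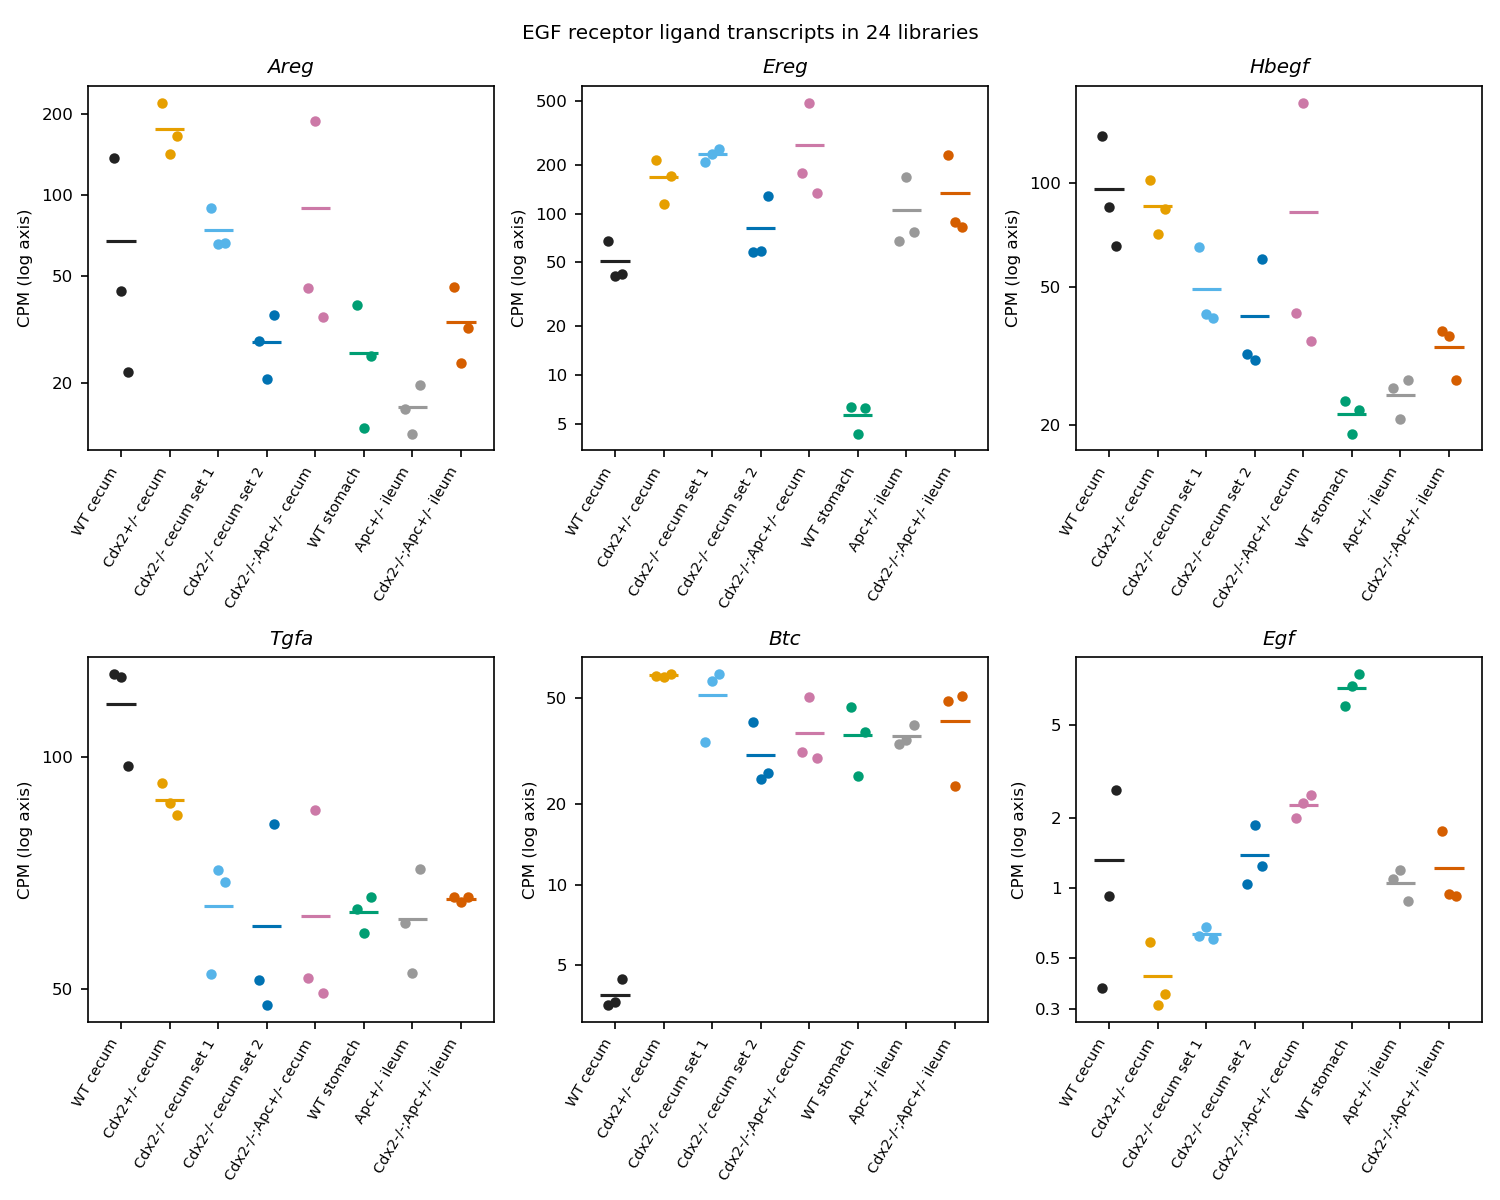
Levels of the 6 ligand transcripts in CPM (log axis, 1 panel per gene), with 1 point per library, 3 libraries per group and a bar at the group mean. Btc is low only in WT cecum (3.55 to 4.44 CPM), Ereg is lowest in WT stomach (4.33 to 6.35 CPM), and Egf is highest there (6.01 to 8.28 CPM).

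Epiregulin, encoded by Ereg, was higher in all 3 mutant cecum groups than in WT cecum. Ereg had 67.9, 41.4 and 42.6 CPM in WT cecum, 216, 115 and 172 CPM in Cdx2+/- cecum and 209, 236 and 253 CPM in Cdx2-/- set 1. In set 2 it had 57.7, 58.4 and 129 CPM, so that 2 libraries of set 2 lay within the WT range. The rise in Cdx2-/- cecum was 2.72-fold (log2 1.45 ± 0.45, edgeR adjusted p = 0.0104). With set 1 alone the value was 2.20 (adjusted p = 0.00133). With set 2 alone it was 0.69 (adjusted p = 0.244), and without WT cecum replicate 2, with both sets, 1.32 (adjusted p = 0.053). In Cdx2+/- cecum Ereg was 3.32-fold higher than in WT (log2 1.73 ± 0.49, edgeR adjusted p = 0.0105), with no overlap between the groups.

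Ereg reached 489 CPM in Cdx2-/-;Apc+/- cecum replicate 2, the highest of all 24 libraries, next to 180 and 135 CPM in replicates 1 and 3. The group was 5.29-fold above WT cecum (log2 2.40 ± 0.51, edgeR adjusted p = 0.000597), and without replicate 2 the value was 1.64 (adjusted p = 0.00707). Ereg was lowest in WT stomach, at 6.35, 4.33 and 6.26 CPM, which was 8.95-fold below WT cecum (log2 -3.16 ± 0.53, adjusted p = 7.29e-05). Apc+/- ileum held 68.0, 170 and 77.4 CPM and Cdx2-/-;Apc+/- ileum 231, 89.0 and 83.1 CPM, which overlap.

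Amphiregulin, encoded by Areg, varied more among WT cecum libraries than most members did. Areg had 137, 44.2 and 22.0 CPM in WT cecum and 221, 142 and 166 CPM in Cdx2+/- cecum, 142 being the lowest of the heterozygous libraries and just above the highest WT library. The difference of log2 1.38 ± 0.59 did not pass (edgeR adjusted p = 0.0776). Without WT cecum replicate 1 it was 2.41 (adjusted p = 0.00646). In Cdx2-/- cecum Areg was at 89.8, 66.1 and 66.3 CPM in the libraries of set 1 and at 28.8, 20.7 and 35.8 CPM in those of set 2. Both sets overlapped WT cecum, and the value of -0.56 ± 0.49 was not called (adjusted p = 0.352). Against Cdx2+/- cecum, however, Areg was 3.84-fold lower in Cdx2-/- cecum (log2 -1.94 ± 0.48, edgeR adjusted p = 0.00425), with all 6 libraries under the lowest heterozygous one. With set 1 alone that value was -1.25 (adjusted p = 0.121).

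In Cdx2-/-;Apc+/- cecum Areg stood at 45.1, 188 and 35.3 CPM, with replicate 2 again apart, and it was not called against WT cecum (0.40 ± 0.58, edgeR adjusted p = 0.584). Leaving replicate 2 out turned the value to -0.75 (adjusted p = 0.264). WT stomach had 39.0, 13.7 and 25.3 CPM of Areg, Apc+/- ileum 16, 13 and 19.7 CPM, and Cdx2-/-;Apc+/- ileum 45.5, 23.7 and 32.1 CPM. The 2 ileal groups did not overlap, but the difference of 1.05 ± 0.59 did not pass (adjusted p = 0.62).

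Hbegf (ENSMUSG00000024486) encodes the heparin-binding EGF-like growth factor, an early gene of epithelial wounding. It had 136, 85.0 and 65.8 CPM in WT cecum and 102, 70.9 and 83.8 CPM in Cdx2+/- cecum, which overlap (log2 -0.16 ± 0.43, edgeR adjusted p = 0.808). In Cdx2-/- cecum Hbegf was at 65.0, 41.7 and 40.8 CPM in set 1 and 32.1, 30.9 and 60.4 CPM in set 2, all below WT cecum. It was 2.12-fold lower there than in WT (log2 -1.09 ± 0.36, edgeR adjusted p = 0.0167). The call was lost without WT cecum replicate 1 (-0.74, adjusted p = 0.15) and with set 1 alone (-0.96, adjusted p = 0.0778). In Cdx2-/-;Apc+/- cecum it was 42.1, 170 and 34.9 CPM and not called (-0.22 ± 0.43, adjusted p = 0.697), whereas without replicate 2 it was called lower (-1.31, adjusted p = 0.00283). Hbegf was at 23.5, 18.9 and 22.1 CPM in WT stomach, 4.44-fold below WT cecum (log2 -2.15 ± 0.45, adjusted p = 0.00071), and at 20.8 to 37.4 CPM in the ileal libraries.

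Areg and Hbegf varied together over the libraries. Pearson's r of their log2 CPM was 0.83 over all 24 libraries (Spearman's rho 0.81) and 0.90 over the 21 libraries outside WT cecum. Hbegf was highest in Cdx2-/-;Apc+/- cecum replicate 2 and Areg in Cdx2+/- cecum replicate 1, and in WT cecum both were highest in replicate 1. The points share groups and normalisation, so r is a description. The sum of 5 epithelial markers was highest in the library with the most Areg in each of the 5 cecum groups (the sets of Cdx2-/- cecum counted apart). In WT cecum it was 17321, 15651 and 10984 CPM, in the order of Areg, and in Cdx2+/- cecum it hardly differed (21697, 21270 and 21322 CPM). The same held in WT stomach and Apc+/- ileum. In Cdx2-/-;Apc+/- ileum it did not, with sums of 7661, 11487 and 6471 CPM beside 45.5, 23.7 and 32.1 CPM of Areg. Squamous markers in Cdx2+/- cecum summed to 741, 19.8 and 335 CPM, the order of Areg, Ereg and Hbegf there. The summed level of 5 neutrophil markers was 424 CPM in Cdx2-/-;Apc+/- cecum replicate 2, against 64.5 and 126 CPM in replicates 1 and 3, and the epithelial sum was 12294 CPM, against 6870 and 6919 CPM. In WT cecum the neutrophil sum was 3.79, 3.64 and 5.04 CPM. In Cdx2+/- cecum it was 110, 11.7 and 27.1 CPM, the order of Areg and Hbegf there. In Cdx2-/- cecum it was 58.2, 95.7 and 98.9 CPM in set 1 and 53.4, 232 and 104 CPM in set 2. In neither set was the neutrophil sum highest in the library with the most Areg or Hbegf. The part of these cells in the Areg and Hbegf levels was not tested.

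**Figure D2:**
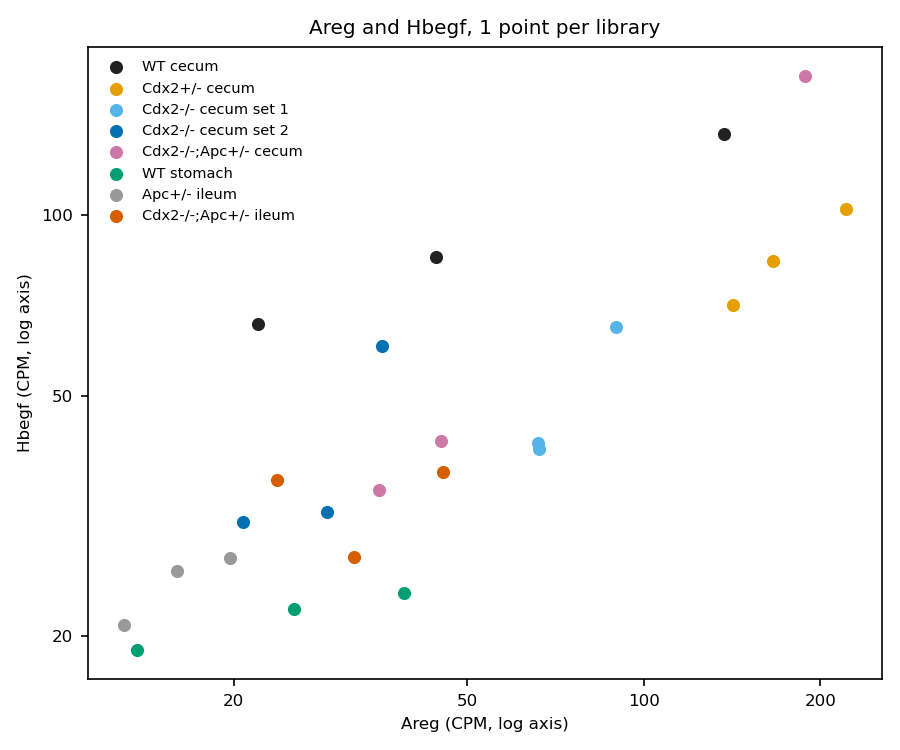
Hbegf against Areg in CPM (both axes logarithmic), with 1 point per library coloured by group. The points rise together (r = 0.83), and Cdx2-/-;Apc+/- cecum replicate 2 (188 CPM of Areg, 170 CPM of Hbegf) lies far from the 2 other libraries of its group.

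Tgfa encodes transforming growth factor alpha, a ligand of the surface epithelium. It had 128, 127 and 97.2 CPM in WT cecum and 92.5, 87.2 and 84.0 CPM in Cdx2+/- cecum, a difference of -0.42 ± 0.21 that was not called although the groups did not overlap (edgeR adjusted p = 0.132). Set 1 of Cdx2-/- cecum held 52.2, 71.2 and 68.8 CPM and set 2 held 51.3, 47.6 and 81.8 CPM. Tgfa was at 51.6, 85.3 and 49.4 CPM in Cdx2-/-;Apc+/- cecum. All 9 of these libraries lay below WT cecum. The fall was 1.89-fold in both genotypes (log2 -0.92 ± 0.18, adjusted p = 0.000222, and -0.92 ± 0.21, adjusted p = 0.00124, edgeR). Stomach and ileum held 52.4 to 71.5 CPM, within the range of the mutant ceca.

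Egf, the founding ligand, had the lowest mean RPKM (CPM per length) of the 6 ligands in every group. Its level was 0.371, 0.920 and 2.64 CPM in WT cecum, from 14 to 178 reads, and 6.01, 7.38 and 8.28 CPM in WT stomach, from 305 to 455 reads. All 3 stomach libraries were above all other libraries, and Egf was 5.43-fold higher in stomach than in WT cecum (log2 2.44 ± 0.47, edgeR adjusted p = 0.000315). Markers of the Egf-rich salivary gland and kidney (Klk1b26, Smr3a and Umod) summed to 0.382 to 1.00 CPM in stomach and to 0 in WT cecum. They summed to 0.0435 to 0.665 CPM in Cdx2-/- set 1, which had only 0.605 to 0.681 CPM of Egf, and to at most 0.245 CPM in the remaining groups. Their part in the Egf level was not tested. Cdx2+/- cecum had 0.586, 0.313 and 0.348 CPM of Egf, called lower than WT (log2 -1.68 ± 0.48, adjusted p = 0.0106) though replicate 1 of WT lay among them. That call was lost without WT cecum replicate 3 (-0.65, adjusted p = 0.211) and without Cdx2+/- cecum replicate 2 (-1.51, adjusted p = 0.0506). Cdx2-/- cecum had 0.605 to 1.86 CPM, not called against WT (-0.50 ± 0.39, adjusted p = 0.288) and called lower without WT cecum replicate 1 (-0.93, adjusted p = 0.0323). Cdx2-/-;Apc+/- cecum had 2.00, 2.31 and 2.51 CPM, not called against WT (0.77 ± 0.45, adjusted p = 0.161), and called higher without WT cecum replicate 3 (1.80, adjusted p = 0.000952).

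Erbb2, the receptor that acts as a partner, showed the largest fall of the 3 receptors in Cdx2-/- and Cdx2+/- cecum. It had 521, 598 and 353 CPM in WT cecum and 194, 213 and 201 CPM in Cdx2+/- cecum. Among Cdx2-/- ceca, set 1 held 121, 116 and 102 CPM and set 2 held 110, 123 and 130 CPM of Erbb2. With ApcD14/+ as well it was 125, 118 and 126 CPM. WT, heterozygous and Cdx2-/- cecum libraries formed 3 ranges that did not overlap. How many of all genes do so was not counted. The Cdx2 transcript did not follow this order (115 to 118 CPM in Cdx2+/-, 130 to 349 CPM in Cdx2-/- cecum), and of these mice only the Cdx2-/- ones were treated. The fall against WT was 4.20-fold in Cdx2-/- cecum (log2 -2.07 ± 0.15, edgeR adjusted p = 3.96e-09), 2.42-fold in Cdx2+/- cecum (-1.28 ± 0.19, 3.87e-05) and 3.97-fold in Cdx2-/-;Apc+/- cecum (-1.99 ± 0.19, 1.78e-07). Cdx2-/- cecum was itself 1.74-fold below Cdx2+/- cecum (-0.80 ± 0.15, adjusted p = 0.000775). WT stomach had 151, 141 and 154 CPM, and the ileal libraries 93.6 to 159 CPM.

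Erbb3, the neuregulin receptor, was also highest in WT cecum and next in Cdx2+/- cecum. WT cecum held 642, 877 and 645 CPM of it and Cdx2+/- cecum 380, 521 and 432 CPM. In Cdx2-/- cecum it was 217, 215 and 207 CPM for set 1 and 284, 398 and 340 CPM for set 2. Cdx2-/-;Apc+/- cecum had 304, 353 and 311 CPM, and every library outside WT cecum was below it. Erbb3 was 2.68-fold lower in Cdx2-/- than in WT cecum (log2 -1.42 ± 0.18, edgeR adjusted p = 1.92e-06) and 2.24-fold lower in Cdx2-/-;Apc+/- cecum (-1.16 ± 0.21, 0.000173). In Cdx2+/- cecum the difference was -0.70 ± 0.21 (adjusted p = 0.0151), a call lost without WT cecum replicate 2 (-0.53, adjusted p = 0.09) and without Cdx2+/- cecum replicate 1 (-0.59, adjusted p = 0.0772). Erbb2 and Erbb3 had an r of 0.88 over 24 libraries and of 0.71 over the 21 libraries outside WT cecum.

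Egfr, the receptor of all 6 ligands, moved the other way. It had 53.9, 47.4 and 53.8 CPM in WT cecum and 139, 156 and 159 CPM in Cdx2+/- cecum, where it was highest. For Cdx2-/- cecum the values were 75.6, 81.7 and 82.9 CPM (set 1) and 76.5, 82.1 and 94.7 CPM (set 2). It had 84.3, 136 and 73.9 CPM in Cdx2-/-;Apc+/- cecum. All mutant libraries were above all WT libraries. Egfr was 1.59-fold higher in Cdx2-/- cecum (log2 0.67 ± 0.19, edgeR adjusted p = 0.0063), 2.93-fold in Cdx2+/- cecum (1.55 ± 0.22, 2.82e-05) and 1.90-fold in Cdx2-/-;Apc+/- cecum (0.92 ± 0.22, 0.00149). It was 1.84-fold lower in Cdx2-/- than in Cdx2+/- cecum (-0.88 ± 0.18, adjusted p = 0.00114). WT stomach had 72.2, 64.8 and 103 CPM and the ileal libraries 77.1 to 119 CPM.

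**Figure D3:**
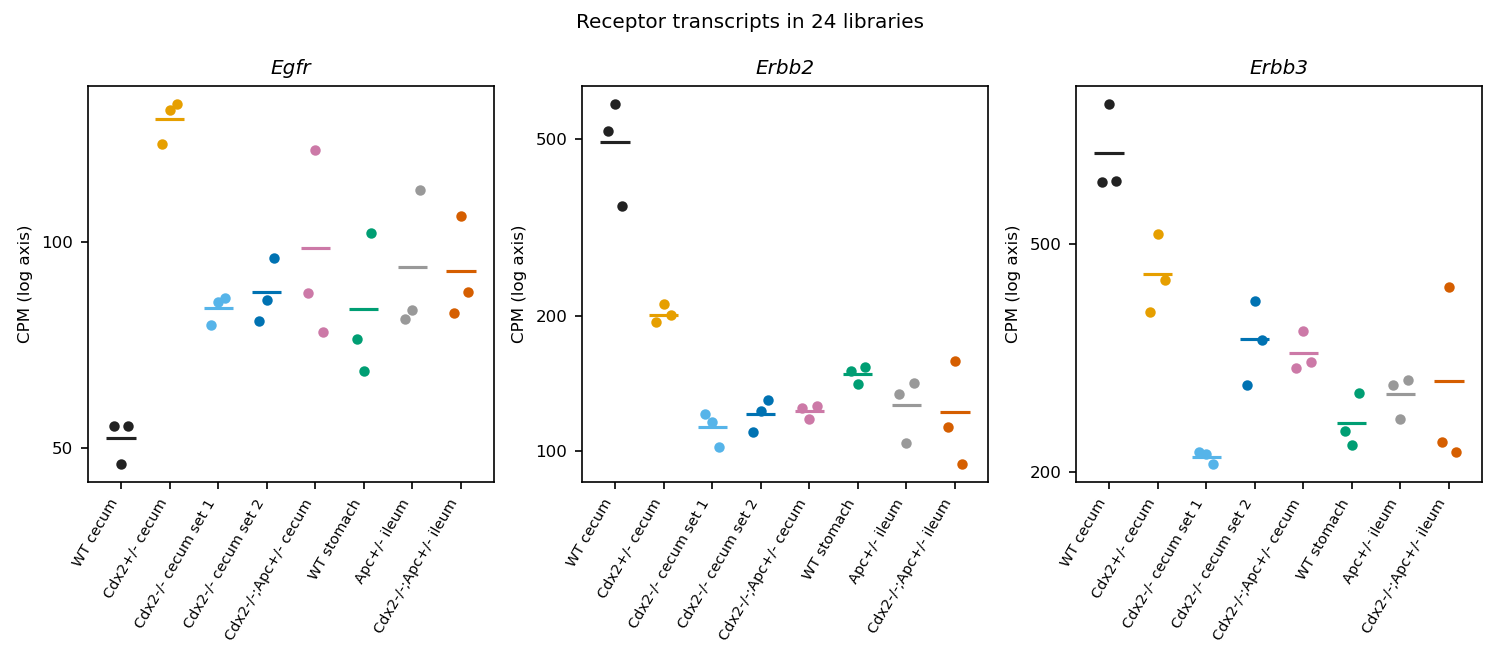
Levels of Egfr, Erbb2 and Erbb3 in CPM (log axis), with 1 point per library and a bar at the mean of each group of 3. WT cecum is the lowest group for Egfr (47.4 to 53.9 CPM) and the highest for Erbb2 (353 to 598 CPM) and Erbb3 (642 to 877 CPM).

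Of the 9 transcripts, 5 had WT cecum levels outside the range of all 21 other libraries: Tgfa, Erbb2 and Erbb3 above it, Btc and Egfr below it. Of all genes tested, 13.7% did so, 7.71% above and 6.03% below. For Tgfa, the WT range of 97.2 to 128 CPM met a highest value of 92.5 CPM elsewhere, the narrowest of these gaps. Among the other groups, neighbours in the order of mean levels mostly overlapped. For Erbb2, Cdx2+/- cecum came second and was apart from WT stomach, and the 6 groups from stomach (149 ± 6.46 CPM, mean ± SD, n = 3) down to Cdx2-/- set 1 (113 ± 9.61 CPM) each overlapped the next. For Btc the 7 groups from Cdx2+/- cecum (60.7 ± 0.671 CPM) down to Cdx2-/- set 2 (30.6 ± 8.68 CPM) each overlapped the next.

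Per transcript length (RPKM), Erbb2 and Erbb3 made up most of the receptor transcripts. In WT cecum Egfr was 2.16 ± 0.538% of the summed RPKM of the 3 receptors (n = 3), Erbb2 42.8 ± 4.83% and Erbb3 55.1 ± 4.60%. In the other 7 groups the mean share of Egfr lay between 8.60% in Cdx2-/- set 2 and 11% in set 1. The RPKM ratio of Erbb2 to Egfr was 14.3 to 27.4 in WT cecum libraries and 1.89 to 4.74 in all others, without overlap. The summed receptor RPKM was 180 to 265 in WT cecum, 113 to 141 in Cdx2+/- cecum and 61.3 to 97.0 in Cdx2-/- cecum.

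Among the ligands, Areg was the largest share of the summed RPKM in Cdx2+/- cecum (62.8 ± 1.36%), with Ereg at 17.4 ± 2.11%. In Cdx2-/- set 1 the shares of both were close, 40.9 ± 6.30% and 38.0 ± 4.45%. In WT cecum the share of Areg ran from 31.1 to 63.4% over the 3 libraries and that of Btc from 0.441 to 1.69%. Btc took 17.7 ± 0.288% in WT stomach, where Ereg took 3.07 ± 0.406%. Egf took at most 2.07% in any library, in WT stomach replicate 2. These shares describe transcripts and not protein or released ligand.

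**Figure D4:**
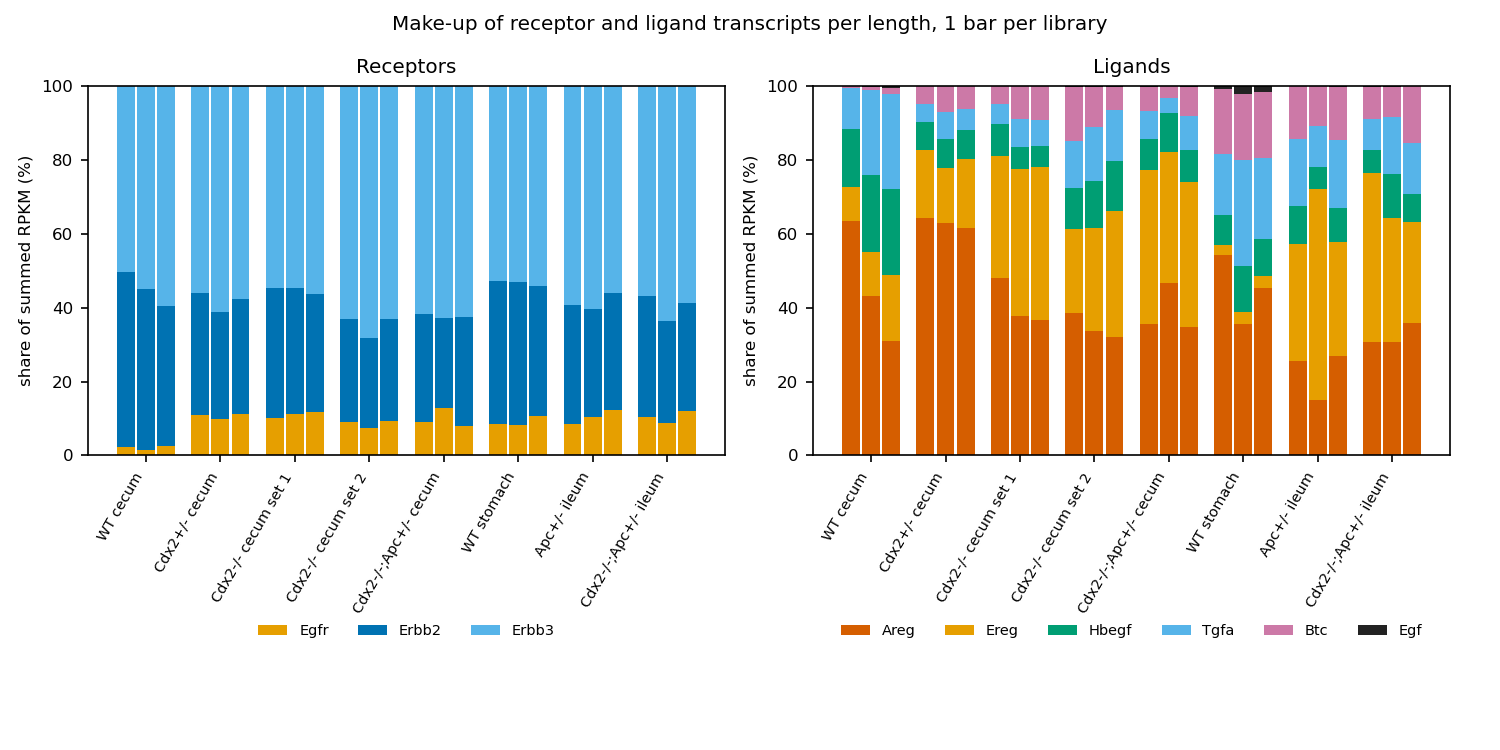
Share (%) of each receptor in the summed RPKM of the 3 receptors (left) and of each ligand in that of the 6 ligands (right), with 1 stacked bar per library and 3 per group. The Egfr part is 1.58 to 2.64% in WT cecum, and the Ereg part is 2.60 to 3.32% in WT stomach.

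Counted over the 9 transcripts, 3 were called higher and 4 lower in Cdx2-/- than in WT cecum, next to 53.1% of all tested genes called either way, 26.9% higher and 26.2% lower. In Cdx2+/- cecum 3 were higher and 3 lower (34.4% of all genes, 17.1% higher and 17.3% lower), and in Cdx2-/-;Apc+/- cecum 3 were higher and 3 lower (52.8%, 26.6% and 26.1%). Shares so large in the background leave little to be read from these counts. Btc, Ereg and Egfr were the higher ones in all 3 comparisons, and Erbb2 and Erbb3 were lower in all 3. The comparisons share the WT cecum libraries. With set 1 or set 2 alone, Cdx2-/- against WT cecum gave log2 values of 3.72 and 2.97 for Btc, 0.63 and 0.71 for Egfr, -2.12 and -2.02 for Erbb2, -1.76 and -1.08 for Erbb3, and -0.87 and -0.96 for Tgfa, each of them called. The median log2 difference over all tested genes lay between -0.05 and 0.07 in them.

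The comparison of Cdx2-/- with Cdx2+/- cecum asked how these 2 groups differ without the WT libraries. Cdx2 itself was not called lower in the libraries labelled Cdx2-/- (130 to 349 against 115 to 118 CPM; log2 0.83 ± 0.42, edgeR adjusted p = 0.118), and every one of them lay above the Cdx2+/- range, against the labels. In it 7 of the 9 transcripts were lower and 1 was higher, against 40.3% of all genes called, 19.7% higher and 20.6% lower. Areg, Egfr, Erbb2 and Erbb3 (-0.72 ± 0.18, edgeR adjusted p = 0.00407) were among the lower ones, and with set 2 alone, whose range overlaps that of Cdx2+/- cecum, Erbb3 lost its call (-0.38, adjusted p = 0.147). Hbegf (-0.93 ± 0.36, adjusted p = 0.0489), Tgfa (-0.50 ± 0.18, adjusted p = 0.0313) and Btc (-0.62 ± 0.24, adjusted p = 0.0496) were near the threshold. Egf was higher (1.18 ± 0.43, adjusted p = 0.0368), and these 4 each lost their call when single libraries were left out. Ereg was not called (-0.29 ± 0.41, adjusted p = 0.601). With set 1 alone 3 of the 9 and 5340 of all 20502 genes were called, and with set 2 alone 6 and 8743. Leaving out 1 library at a time gave 4 to 7 of the 9, next to 5634 to 8481 of all genes. The epithelial marker sum was 21270 to 21697 CPM in Cdx2+/- cecum and 6143 to 15034 CPM in Cdx2-/- cecum, and its part in these lower values was not tested.

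The Cdx2-/-;Apc+/- cecum was compared with Cdx2-/- cecum, both treated, to ask what the mutant Apc allele adds. Of the 9 transcripts 1 was called, against 8.43% of all genes (3.93% higher, 4.5% lower): Egf was higher (log2 1.28 ± 0.38, edgeR adjusted p = 0.0439), at 2.00 to 2.51 CPM against 0.605 to 1.86 CPM. That call was lost in 8 of 9 fits with 1 library left out, with 1.19 to 1.41 as the range of its value. Against set 1 alone the value was 1.84 (adjusted p = 0.00952) and against set 2 alone 0.72 (adjusted p = 0.675). The fold changes of Ereg (0.96 ± 0.40), Areg (0.97 ± 0.49) and Hbegf (0.87 ± 0.36) were not called. Without Cdx2-/-;Apc+/- cecum replicate 2 they were 0.19, -0.19 and -0.23. Tgfa, Btc and Erbb2 had values of 0.00 ± 0.18, -0.09 ± 0.25 and 0.08 ± 0.16.

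Between the 2 sets of Cdx2-/- libraries, 1 of the 9 transcripts was called, against 10.5% of all genes (4.03% higher, 6.45% lower). Erbb3 was higher in set 2 (log2 0.68 ± 0.21, edgeR adjusted p = 0.0467), and every fit with 1 library left out lost that call. Ereg (-1.51 ± 0.49, adjusted p = 0.0545) and Areg (-1.38 ± 0.59, adjusted p = 0.142) were lower in set 2 in all 3 libraries than in any library of set 1, without passing. Without set 2 replicate 6, Ereg passed (-2.01, adjusted p = 0.0293). Library code, Xist and the summed stomach markers (3016 to 12547 CPM in set 1, 751 to 2424 CPM in set 2) differ between the sets and cannot be told apart here.

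Cdx2 was not called lower in the libraries labelled Cdx2-/-;Apc+/- ileum than in Apc+/- ileum (log2 0.14 ± 0.47, edgeR adjusted p = 0.981). In the ileum none of the 9 transcripts was called between Cdx2-/-;Apc+/- and Apc+/- libraries by edgeR, none had an unadjusted p under 0.05 and DESeq2 called none. Of all genes 0.444% were called (0.395% higher, 0.0488% lower). The log2 values ran from -0.06 ± 0.18 for Erbb2 to 1.05 ± 0.59 for Areg. Btc, which differed so widely between cecum groups, had 0.19 ± 0.29, and Egfr had -0.02 ± 0.21. Without the library labelled Cdx2-/-;Apc+/- ileum replicate 2 no member was called either. A test of the difference between the effects, that is Cdx2-/-;Apc+/- against WT in the cecum minus Cdx2-/-;Apc+/- against Apc+/- in the ileum, called 3 transcripts higher and 3 lower, against 34.7% of all genes (16.4% higher, 18.3% lower). Btc (3.07 ± 0.42, adjusted p = 3.36e-05), Ereg (2.05 ± 0.69, 0.0265) and Egfr (0.94 ± 0.30, 0.0216) were higher. Erbb2 (-1.93 ± 0.26, 3.12e-05), Erbb3 (-1.23 ± 0.30, 0.0039) and Tgfa (-1.0 ± 0.30, 0.0129) were lower. Without Cdx2-/-;Apc+/- cecum replicate 2, Ereg (1.28, adjusted p = 0.123) and Egfr (0.63, adjusted p = 0.0807) lost their calls. Without WT cecum replicate 2 they were also lost (1.92, adjusted p = 0.0657, and 0.89, adjusted p = 0.0551). Ereg lost its call also without Cdx2-/-;Apc+/- ileum replicate 2 (1.82, adjusted p = 0.0677) or 3 (1.80, adjusted p = 0.0623) and without Apc+/- ileum replicate 2 (1.52, adjusted p = 0.0938). Egfr did so without Cdx2-/-;Apc+/- ileum replicate 1 (0.85, adjusted p = 0.0505) and without Apc+/- ileum replicate 3 (0.71, adjusted p = 0.0752). The controls of the 2 tissues differ in Apc genotype, so tissue and Apc cannot be told apart in this term. Depth differed as well between WT cecum (51716082 to 71485860 gene reads) and Cdx2-/-;Apc+/- cecum (42442153 to 43882457), while the ileal groups overlapped. The part of depth or of a batch of libraries was not tested. Cdx2 differed in this term too (-2.19 ± 0.67, adjusted p = 0.0163). Within Cdx2-/-;Apc+/- mice, cecum and ileum were compared directly. None of the 9 was called, against 16.2% of all genes (6.6% higher, 9.59% lower), 2 had an unadjusted p under 0.05, and DESeq2 called Hbegf (1.33, adjusted p = 0.0221). With only the groups compared in the fit, 0 of 18501 genes were called. By edgeR Hbegf was 1.30 ± 0.44 (adjusted p = 0.0505), and it passed without cecum replicate 1 (1.61, adjusted p = 0.0304) or 3 (1.66, adjusted p = 0.0134). Ereg passed without ileum replicate 1 (1.64, adjusted p = 0.0366).

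The wild-type stomach served as the gastric reference and was set against WT cecum. Of the 9 transcripts 3 were higher and 5 lower in stomach, against 43.7% of all genes called, 22.1% higher and 21.6% lower. Btc was 9.35-fold higher (log2 3.23 ± 0.32, edgeR adjusted p = 1.71e-07), with Egf and Egfr (0.63 ± 0.22, adjusted p = 0.0236) also higher. Erbb2 was 3.30-fold lower (-1.72 ± 0.19, adjusted p = 6.33e-07), Erbb3 2.95-fold (-1.56 ± 0.22, 9.42e-06) and Tgfa 1.87-fold (-0.90 ± 0.21, 0.00175). The stomach libraries lay within the range of the 6 Cdx2-/- cecum libraries for Btc, Tgfa and Erbb3 and above it for Erbb2 (141 to 154 against 102 to 130 CPM). Ereg was at 4.33 to 6.35 CPM in stomach and at 57.7 to 253 CPM in Cdx2-/- cecum. Egfr lost its call without WT cecum replicate 2 (0.57, adjusted p = 0.0851) and without WT stomach replicate 3 (0.41, adjusted p = 0.162). Areg was not called (-1.38 ± 0.59, adjusted p = 0.0657), but it passed as lower without WT cecum replicate 3 (-1.80, adjusted p = 0.0155), without WT stomach replicate 1 (-1.79, adjusted p = 0.045) and by DESeq2 (-1.40, adjusted p = 0.0372).

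**Figure D5:**
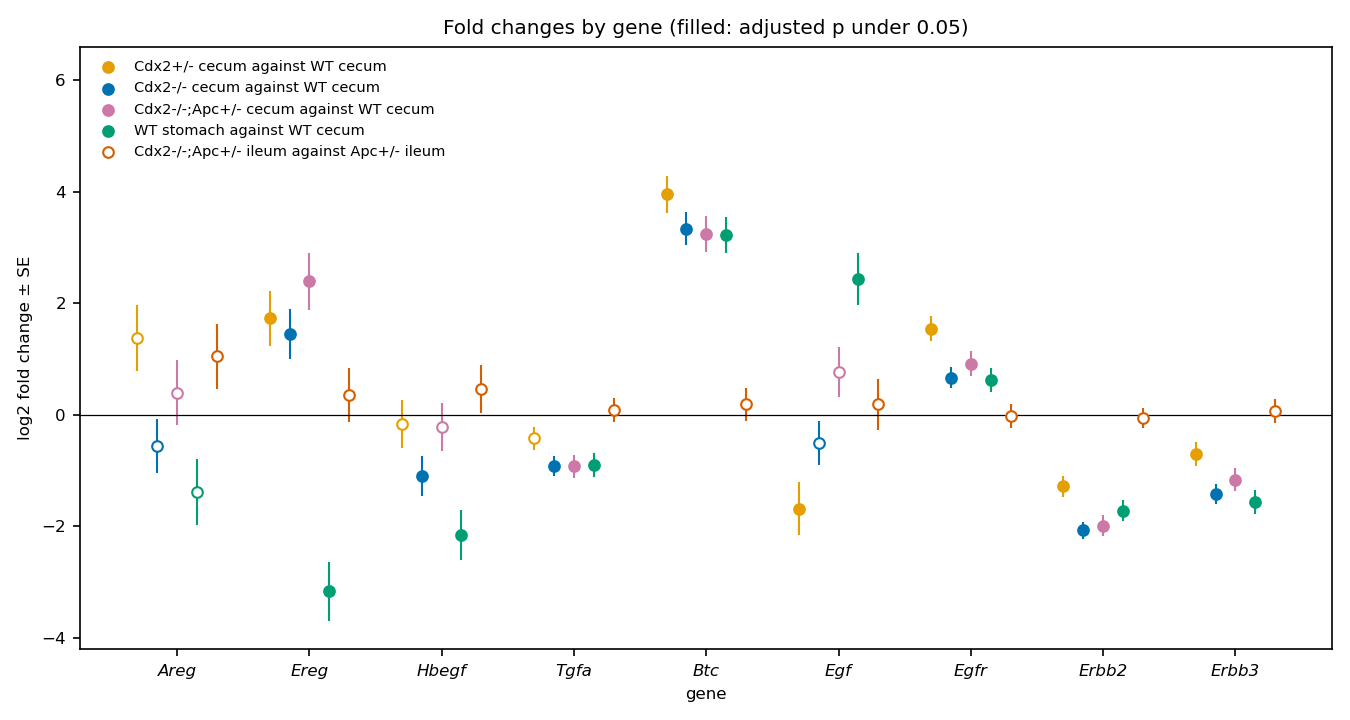
Log2 fold changes ± SE of the 9 transcripts in 5 comparisons, with filled points at an edgeR adjusted p under 0.05 and open points otherwise; the first 4 comparisons share WT cecum. Btc lies at 3.23 to 3.96 in those 4 and at 0.19 in the ileum, and Ereg is at -3.16 in stomach and at 1.45 to 2.40 in the mutant ceca.

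The other members of the ERBB family were taken from a list of 6 genes, of which 5 were tested and Nrg3 reached at most 0.437 CPM. In Cdx2-/- against WT cecum 2 were higher and 1 lower (26.9% and 26.2% of all genes). Nrg1, a neuregulin that binds ERBB3, went from 5.23 ± 1.92 CPM in WT cecum to 32.2 ± 2.48 CPM in set 1 and 23.6 ± 6.66 CPM in set 2 (n = 3 each; log2 2.40 ± 0.31, edgeR adjusted p = 3.39e-06). It was also higher in Cdx2+/- cecum (27.9 ± 2.82 CPM; 2.41 ± 0.33) and was 4.73 ± 1.58 CPM in stomach. Nrg4, a ligand of ERBB4, was higher in Cdx2-/- cecum (2.54 ± 0.42, adjusted p = 5.58e-05) at 20.7 ± 6.40 and 13.8 ± 6.82 CPM in the sets, but stood at 1.78 ± 0.182 CPM in Cdx2+/- cecum against 2.89 ± 1.19 CPM in WT. Epgn, the neighbour of Ereg, was lower (-1.63 ± 0.58, adjusted p = 0.0243), at 0.323 to 1.24 CPM on average in the sets against 1.97 ± 1.46 CPM in WT, and stood at 5.47 ± 0.174 CPM in Cdx2+/- cecum (not called). Nrg2 was not called (-0.50 ± 0.40, adjusted p = 0.31).

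Genes of ligand release, 9 in number, had 4 higher and 3 lower in Cdx2-/- cecum (26.9% and 26.2% of all genes), with a median log2 value of 0.43 against 0.04 over all genes. Frmd8, a partner of the iRhom proteins that bring the protease ADAM17 to the surface, fell from 140 ± 55.6 to 44.8 ± 1.51 CPM in set 1 and 30.7 ± 5.13 CPM in set 2 (log2 -1.91 ± 0.23, edgeR adjusted p = 1.53e-06). The rhomboid protease gene Rhbdl2 also fell (-1.78 ± 0.26, adjusted p = 1.24e-05). The metalloprotease genes Adam9 (1.35 ± 0.19, adjusted p = 9.05e-06) and Adam12 (2.81 ± 0.38, adjusted p = 5.8e-06) rose, Adam9 from 115 ± 6.87 CPM to 306 ± 46.2 and 280 ± 12.1 CPM.

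Of 18 inhibitors of the receptor and of RAS-ERK signalling, 5 were higher and 7 lower in Cdx2-/- cecum (median -0.14), next to 26.9% and 26.2% of all genes. Lrig2, of a family that restrains receptors, fell from 76.1 ± 15.7 CPM to 18.4 ± 0.697 and 23.5 ± 3.38 CPM in the sets (-1.87 ± 0.12, edgeR adjusted p = 1.08e-09), and Spred2, an inhibitor of the cascade at RAS, fell by 1.28 ± 0.15. Socs5 (1.83 ± 0.22, adjusted p = 1.63e-06) and the ERK phosphatase gene Dusp4 (2.02 ± 0.33, adjusted p = 4.76e-05) rose. Of 16 adaptors and core members of the RAS-ERK cascade, 1 was higher and 9 lower (median -0.58), against the same 26.9% and 26.2%. Map2k1, which encodes the kinase MEK1, fell from 491 ± 148 CPM to 142 ± 9.35 and 114 ± 34.4 CPM (-1.94 ± 0.18, adjusted p = 5.34e-08). The adaptor genes Gab1 (-1.23 ± 0.13) and Grb2 (-1.04 ± 0.13) and the exchange factor gene Sos2 (-1.0 ± 0.11) fell as well.

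The 12 transcripts chosen as responsive to ERK had 8 higher and none lower in Cdx2-/- cecum (26.9% and 26.2% of all genes), with a median of 1.23. The transcription factor gene Etv4 went from 3.20 ± 1.32 CPM to 33.8 ± 6.91 and 21.5 ± 0.189 CPM in the sets (log2 3.07 ± 0.29, edgeR adjusted p = 6.89e-08). The cyclin gene Ccnd1 (1.98 ± 0.23, adjusted p = 1.14e-06), the ephrin receptor gene Epha4 (2.10 ± 0.28, adjusted p = 5.14e-06) and Phlda1 (1.57 ± 0.35, adjusted p = 0.00093) rose too. In Cdx2+/- cecum 7 of the 12 were higher (median 1.46; 17.1% of all genes), in Cdx2-/-;Apc+/- cecum 9 (median 1.62; 26.6%) and in stomach 4 (median 0.15; 22.1%). In the ileum none of the 12 was called (median 0.05), nor was any gene of the other 4 lists. In Cdx2-/- against Cdx2+/- cecum 1 was higher and 5 were lower (median -0.93; 19.7% and 20.6% of all genes). Transcript levels do not measure the activity of the kinases.

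For each member the 3 transcripts most like it were taken by Pearson's r of log2 CPM over 24 libraries, among 11357 genes. For Areg these were Spry2 (0.91), Epha2 (0.88) and Sprr1a (0.87), and for Hbegf Mgat4b (0.96), Trip10 (0.94) and Ccdc71l (0.93). For Ereg they were Kcnk1 (0.92), Urah (0.91) and Homer1 (0.90), and all 9 of these values stayed at 0.86 or above without the WT cecum libraries. Btc was most like Rnf217 (0.95), Mpzl2 (0.94) and Il33 (0.94), and these fell to 0.69, 0.68 and 0.69 without WT cecum. Tgfa was most like Oxsr1 (0.93), Abhd2 (0.92) and Psmd8 (0.90), and Egf like Stat5b (0.90), Rian (0.89) and Wdsub1 (0.89). Among the receptors, Egfr was most like Entpd7 (0.91), Ssh1 (0.89) and Rplp0 (0.83), Erbb2 was among others like Tmem170 and Gpr160 (0.97 each), and Erbb3 like Parp4, Daam1 (0.95 each) and Arfgap3 (0.93). The libraries share groups, tissue and normalisation, and r describes them only. Btc and Erbb2 had an r of -0.81 over all libraries and of 0.15 without WT cecum.

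Markers of other cell types moved with the cecum groups. The 5 neutrophil markers summed to 3.64 to 5.04 CPM in WT cecum, with S100a8, S100a9 and Mmp8 under 1 CPM in each library, and to 11.7 to 110 CPM in Cdx2+/- cecum, 53.4 to 232 CPM in Cdx2-/- cecum and 64.5 to 424 CPM in Cdx2-/-;Apc+/- cecum. The 5 macrophage markers summed to 32.2 to 91.5 CPM in WT cecum and 73.5 to 159 CPM in Cdx2-/- cecum. The 5 fibroblast markers summed to 331 to 920 CPM in WT and 1087 to 2073 CPM in Cdx2-/- cecum. Smooth muscle markers (5 of 5 present in each library) summed to 997 to 3355 CPM in WT cecum, 1186 to 2487 CPM in Cdx2-/- cecum and only 109 to 459 CPM in Cdx2+/- cecum. The 5 squamous markers summed to 1.20 to 4.05 CPM in WT cecum, 19.8 to 741 CPM in Cdx2+/- cecum, 8.47 to 38.7 CPM in Cdx2-/- cecum and 26.1 to 48.9 CPM in Cdx2-/-;Apc+/- cecum. The 4 Paneth cell markers summed to 1.42 to 7.40 CPM in WT cecum, where Mmp7, Defa24 and Defa17 were under 1 CPM in each library, and to 9.69 to 13.1 CPM in Cdx2+/- cecum, 122 to 1417 CPM in Cdx2-/- cecum and 942 to 3533 CPM in Cdx2-/-;Apc+/- cecum. Epithelial markers (5 of 5) summed to 10984 to 17321 CPM in WT cecum, 21270 to 21697 CPM in Cdx2+/- cecum and 6143 to 15034 CPM in Cdx2-/- cecum. Among them Epcam (-0.92, edgeR adjusted p = 0.00118) and Krt8 (-0.90, adjusted p = 0.0261) were lower in Cdx2-/- than in WT cecum and Krt18 was higher (1.27, adjusted p = 0.000934). Cdh1 (-0.09, adjusted p = 0.726) and Krt19 (-0.17, adjusted p = 0.657) were not called. The part of these cells in the levels of the 9 transcripts was not tested.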

How the data were processed

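The measurements are RNA sequencing of 24 gut libraries. Per the labels' protocols, Trizol total RNA went into a TruSeq mRNA kit. The deposited files hold raw read counts per Ensembl gene, and CASAVA, TopHat2 2.0.11, HTSeq 0.5.3p3 and GRCm38 are named in the submitters' processing notes. For counting options and strand, the sources used here give nothing. The 5 closing entries that name no gene were left out (reads in no gene 6.62 to 10.4%, in more than 1 gene 2.00 to 3.44%, not unique 17.3 to 30.0% per library).

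Symbols came from GENCODE M21. edgeR 4.0.16 (R 4.3.3; TMM, filterByExpr, quasi-likelihood F test) was fitted to all libraries in 8 groups without a block, in 10 comparisons. The means of both Cdx2-/- sets were averaged, so their SE holds no difference between sets. RPKM divided CPM by the merged exon length. Alternatives were RLE normalisation, no count filter, only the groups compared, set 1 replicates 2 and 3 as 1 library, a replicate block, each library left out, and DESeq2 1.42.0. Either set alone was added after seeing the data. On simulated counts for Cdx2-/- against WT cecum (19753 genes), 62% of 100 genes changed by 1 on the log2 scale and 100% of 96 changed by 2 were called, with 4.24% false calls. The simulation set 6 libraries against 3, gave all genes the same spread and changed few genes. In the data 53.1% of genes were called in this comparison, so these percentages are not the sensitivity of the real fits. Depth gives at least 134 reads per library for each member but Egf (14 to 455 reads).

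The members, lists and naming rule were chosen with earlier results of these data known. The rule names all members, Cdx2, up to 4 genes per pathway list with the smallest adjusted p in Cdx2-/- against WT cecum, and for each member the 3 most correlated genes with a mean of at least 5 CPM over the 24 libraries. It leaves out predicted genes, receptor segments of lymphocytes, Y-linked genes and Xist. One gene that the rule names is not reported here. Other genes are named as markers of tissues, cells or sex. Values were drawn with Python 3.11.15 and matplotlib 3.10.9.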

Additional observations from a re-analysis of the deposited data

Results flagged for a closer look

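The mutant-minus-control difference was not the same in cecum and ileum for 6 transcripts, by a test of cecum minus ileum (edgeR). Of all genes 34.7% were called in this term, 16.4% higher and 18.3% lower. Treatment goes with genotype in both tissues. On the log2 scale the term was 3.07 for Btc, 2.05 for Ereg and 0.94 for Egfr, and -1.93 for Erbb2, -1.23 for Erbb3 and -1.0 for Tgfa. The cecum control is WT and the ileum control Apc+/-, so tissue and Apc genotype cannot be told apart. Gene reads were also fewer in each Cdx2-/-;Apc+/- than in each WT cecum library and overlapped between the ileal groups, and their part was not tested. Cdx2 was not called lower in the ileum (0.14 ± 0.47, adjusted p = 0.981) and differed in the same term (-2.19 ± 0.67, adjusted p = 0.0163). The Ereg call was lost in 5 fits with 1 library left out and the Egfr call in 4. Without Cdx2-/-;Apc+/- cecum replicate 2 Hbegf was called as well (-1.77, adjusted p = 0.00444), and without WT cecum replicate 3 Egf was (1.60, adjusted p = 0.0179). Erbb3 differed between the 2 sets of Cdx2-/- cecum by 0.68 on the log2 scale, a difference also tested, and all 6 fits with 1 library left out lost that call (adjusted p from 0.0516 to 0.198, edgeR).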

How the results depend on the processing

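Of the results over members, the number with an unchanged side of the threshold and direction was 86 of 90 under RLE, under no count filter and under DESeq2, 84 of 90 with only the groups compared, 72 of 81 with the replicate block, 31 of 36 with set 1 replicates 2 and 3 as 1 library, 18 of 27 with set 1 alone and 19 of 27 with set 2 alone. The number of members called (1) for Cdx2-/-;Apc+/- against Cdx2-/- cecum became 0 with no count filter, with set 1 replicates 2 and 3 as 1 library and with set 2 alone, and 2 with the replicate block and with set 1 alone. For set 2 against set 1 (1 called) it became 0 with no count filter and with the merged library, 2 with DESeq2 and 3 with only the groups compared. For Cdx2-/- against Cdx2+/- cecum (8 called) it was 3 with the replicate block and with set 1 alone, and for Cdx2-/-;Apc+/- cecum against its ileum (0 called) it was 1 with RLE and with DESeq2. Deviations from group means in same-numbered libraries had correlations from -0.16 to 0.33. Differently numbered libraries were not set beside them, so this does not decide whether replicate numbers pair the samples. The block, which leaves out set 2, turned Areg to 0.30 against WT cecum and Ereg to 0.48 against Cdx2+/- cecum. Set 1 alone gave 0.13 and 0.47 for these. Set 2 alone turned Egf in Cdx2-/- against WT cecum to 0.05, and in Cdx2-/-;Apc+/- against Cdx2-/- cecum it turned Btc to 0.28 and Erbb3 to -0.08. There Tgfa, at 0.00, was 0.02 with RLE and with DESeq2, 0.00 with only the groups compared, 0.03 with the merged library and 0.04 with set 2 alone. The cause was not tested.

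Fits with 1 library left out tested 20926 to 21009 genes, and the range of all genes called in them is given in brackets. Leaving out 1 library at a time gave 6 to 7 members called for Cdx2-/- against WT cecum (8905 to 11338 genes) and 5 to 7 for Cdx2+/- (5337 to 7074). It gave 6 to 7 for Cdx2-/-;Apc+/- (8906 to 11464) and 7 to 9 for stomach (7214 to 9876). For Cdx2-/-;Apc+/- against Cdx2-/- cecum it gave 0 to 1 (280 to 1862), for the sets 0 to 1 (665 to 2091) and for Cdx2-/- against Cdx2+/- cecum 4 to 7 (5634 to 8481). For Cdx2-/-;Apc+/- cecum against ileum it gave 0 to 1 (1620 to 3405), for the ileum 0 (3 to 583) and for the difference of effects 4 to 7 (5528 to 8442). The log2 values that changed sign ran as follows. Against WT cecum they were -0.98 to 0.47 for Areg and -0.93 to 0.52 for Egf in Cdx2-/-, -0.37 to 0.18 for Hbegf in Cdx2+/-, and -0.75 to 1.43 for Areg and -1.31 to 0.15 for Hbegf in Cdx2-/-;Apc+/- cecum. In Cdx2-/-;Apc+/- against Cdx2-/- cecum they were -0.19 to 1.35 for Areg, -0.23 to 1.23 for Hbegf, -0.30 to 0.14 for Tgfa, -0.37 to 0.04 for Btc and -0.06 to 0.42 for Egfr. Between the sets they were -0.38 to 0.05 for Tgfa and -0.02 to 0.14 for Egfr. In the ileum they were -0.29 to 0.89 for Ereg, -0.01 to 0.21 for Tgfa, -0.18 to 0.36 for Egf, -0.17 to 0.21 for Egfr, -0.29 to 0.10 for Erbb2 and -0.30 to 0.24 for Erbb3. Between Cdx2-/-;Apc+/- cecum and ileum they were -0.37 to 0.07 for Tgfa, -0.42 to 0.04 for Btc, -0.20 to 0.28 for Egfr, -0.14 to 0.26 for Erbb2 and 0.00 to 0.54 for Erbb3, and for the difference of effects -1.81 to 0.38 for Areg.

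On simulated counts of 6 Cdx2-/- against 3 WT cecum libraries, with few genes changed, 62% of differences of 1 on the log2 scale were recovered. Comparisons of 3 against 3 libraries were not simulated. Egf in WT and Cdx2+/- cecum rests on 14 to 178 reads. CPM by RLE library sizes moved none of 72 group means of members by more than 1 SD, and plain totals moved 26. Over all genes, Cdx2-/-;Apc+/- against Cdx2-/- cecum called 1729 genes, 4326 with the replicate block, 1053 with only the groups compared, 2 with set 2 alone and 280 without Cdx2-/-;Apc+/- cecum replicate 2. In the ileum 91 genes were called, 416 with DESeq2, 1 with only the groups compared and 583 without Cdx2-/-;Apc+/- ileum replicate 2. Cdx2-/-;Apc+/- cecum against its ileum called 3321 genes, 3322 with RLE, 4228 with DESeq2 and 0 with only the groups compared. Cdx2-/- against Cdx2+/- cecum called 8253, 5363 with the replicate block and 5340 with set 1 alone. Set 2 against set 1 called 2148, 1524 with no count filter, 970 with the merged library, 2952 with DESeq2 and 1469 with only the groups compared.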
